A study of Mus musculus with 9 samples.

Results

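The comparison described here is that of MLP29 cells given an antibody against α5β1 integrin with untreated MLP29 cells, 3 arrays against 3, paired by the day of the experiment. These 6 arrays are part of a series of 9, all hybridised to the Affymetrix Mouse430A_2 array, and the other 3 hold cells given HGF/SF1. The MLP29 line was derived from mouse liver and has the properties of progenitor cells. Before treatment all cells were starved in 0.1% serum for at least 16 h, and the cells then received the blocking antibody (clone BMB5, 10 µg/ml), the Met ligand HGF/SF1 (20 ng/ml) or neither for 24 h. Each of the 3 independent experiments held each condition once, and the experiments are numbered 1, 2 and 3. The series text calls the control cells untreated, and that name is used here. The study's methods mention DMSO, ethanol or an IgG antibody as controls of its experiments as a whole without saying what the control cells of the arrays received, so whether an effect of added antibody is part of the comparison cannot be told from these sources, and all results come from a single cell line.

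Integrin α5β1 is the main receptor for fibronectin, a protein of the extracellular matrix. Its α5 and β1 subunits, encoded by Itga5 and Itgb1, span the membrane, and when bound to matrix they gather adaptor proteins and kinases that link the matrix to actin and to the MAP kinase pathway. An antibody that blocks the receptor acts on the protein, so the RNA of its subunits is not a check of the treatment. Itgb1 read 9.70, 9.66 and 10.19 on the log2 scale in untreated cells of experiments 1, 2 and 3, and 9.84, 9.82 and 10.04 after the antibody (change 0.05, SE 0.10, adjusted p = 0.852 from limma). Another Itgb1 probe set of nearly the same level, 9.68 against 9.83, had paired changes of 0.26, 0.30 and 0.29, a fitted change of 0.28 (SE 0.08, adjusted p = 0.149 from limma) with an unadjusted p of 0.0119, so the bright probe sets of this gene differed in whether they met the rule for a call that is given below. Itga5 read 6.86, 7.07 and 7.81 untreated and 7.20, 7.00 and 7.99 with the antibody (change 0.15, SE 0.13, adjusted p = 0.631 from limma).

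Values were deposited on the log2 scale, 1 for each probe set, and the array medians lay between 5.91 and 6.08. Of the markers of epithelial and liver progenitor cells, 10 of 12 were measured and 7 lay above the median level of all genes, with Krt8 near 13.8 and Krt18 at 14.01, but Epcam (4.34) and Prom1 (4.39) were low. Of the hepatocyte markers 2 of 9 measured lay above the median, and Alb, which encodes albumin, stood at 4.01. Of the macrophage and leukocyte markers 3 of 12 did (Cd14, a coreceptor for endotoxin, at 11.73, S100a8 and S100a9), and of the 6 endothelial and the 9 fibroblast and stellate markers 0 did. The first principal component held 35.3% of the variance and placed the antibody arrays of experiments 2 and 3 (47.3 and 51.7) apart from all others, while that of experiment 1 (-3.2) lay beside the untreated array of experiment 3 (-2.3). In experiment 3 the laboratory number in the label of the antibody array lies apart from those of the other two arrays, and its part in the results was not tested.

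For each of 12393 genes the brightest of the probe sets that name it alone was taken. In what follows, genes that rose or fell passed an adjusted p under 0.05 (limma, Benjamini-Hochberg over 22626 probe sets), and genes called higher or lower passed an unadjusted p under 0.05 and had paired changes of 1 sign in all 3 experiments. The model held the experiment as a block. Of all probe sets 4114 passed an unadjusted p under 0.05 (18.2%), 8.05% higher and 10.1% lower, and 24 passed the adjusted threshold (0.106%), 0.0575% higher and 0.0486% lower. Paired changes of 1 sign, with no test, were seen in 36.8% of probe sets (18.2% higher and 18.6% lower). By the rule for genes 2122 genes were called, 17.1% of all genes, 908 of them higher (7.33%) and 1214 lower (9.80%), and 15 genes passed the adjusted threshold (0.121%), of which 8 rose (0.0646%) and 7 fell (0.0565%). A paired change of 1 sign in all experiments, with no test, was seen in 4619 genes (37.3%). In 121 genes called higher and 132 called lower the smallest of the 3 paired changes was above 0.5 on the log2 scale, and in 24 and 9 it was above 1. Among the probe sets past an unadjusted p 44.3% were higher, and when arrays were centred on their medians 55.1% were, so the larger side depended on the scaling. The median change of all genes moved by no more than 0.056 under these scalings.

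The experiments differed in the size of the response. In experiment 1, 135 genes differed by more than 2-fold between antibody and untreated cells, against 764 in experiment 2 and 638 in experiment 3. Over the genes called higher the median paired change was 0.36, 0.54 and 0.53 in experiments 1, 2 and 3, and over those called lower it was -0.29, -0.69 and -0.60. The smallest of the 3 paired changes fell in experiment 1 for 1345 of the 2122 called genes. Across probe sets, which are not independent and share the arrays, the paired changes correlated with r = 0.546 between experiments 2 and 3, 0.318 between 1 and 2, and 0.292 between 1 and 3. Without the arrays of experiment 1, 3232 genes were called and 1430 passed the adjusted threshold, all 15 among them. Without those of experiment 2 or of experiment 3, 929 and 1186 genes were called and 0 passed, although 1750 and 2140 probe sets still had an unadjusted p under 0.05.

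Of the 8 genes that rose, the largest changes were those of Ccl7 and Selenoh. Ccl7 encodes a chemokine that attracts monocytes. Its signal was 4.82, 4.55 and 6.60 in untreated cells and 6.88, 7.14 and 8.17 after the antibody, a change of 2.07 (SE 0.18, adjusted p = 0.0326). Every antibody value of Ccl7 lay above every untreated value, although the untreated value of experiment 3 came close to the antibody value of experiment 1. Selenoh, a selenoprotein of the nucleolus, read 8.32, 8.68 and 8.22 untreated and 10.69, 10.46 and 10.17 with the antibody (change 2.03, SE 0.14, adjusted p = 0.024), or 4.09-fold, with its largest change, 2.36, in experiment 1.

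Slpi and Gpx1 were bright in both groups. Slpi, a secreted inhibitor of leukocyte proteases, read 9.95, 9.86 and 9.75 untreated and 11.37, 11.65 and 11.42 after the antibody (change 1.63, SE 0.12, adjusted p = 0.024). Gpx1 is a glutathione peroxidase with selenocysteine in its active site. Its values of 10.71, 11.11 and 10.81 became 12.43, 12.21 and 12.12 (change 1.38, SE 0.13, adjusted p = 0.0326), with no overlap. Slc25a48, a carrier of the mitochondrial inner membrane, read 5.67, 6.39 and 6.75 untreated and 7.17, 7.89 and 8.99 with the antibody (change 1.75, SE 0.19, adjusted p = 0.0473).

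The other genes that rose had changes close to 2-fold. Morc4, a nuclear ATPase with a CW-type zinc finger, read 6.71, 6.85 and 6.86 untreated and 7.78, 7.92 and 8.20 with the antibody (change 1.16, SE 0.10, adjusted p = 0.0326). Tpd52l1, of the tumor protein D52 family, read 7.50, 7.97 and 7.49 and then 8.43, 8.88 and 8.70 (change 1.02, SE 0.11, adjusted p = 0.0457). In both the groups stood apart. Ifnar2, a subunit of the type I interferon receptor, went from 10.05, 10.46 and 10.66 to 10.86, 11.55 and 11.94 (change 1.06, SE 0.11, adjusted p = 0.0457). The second probe set of Ifnar2 had the opposite sign, and the mean of both changed by 0.21.

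Among the 7 genes that fell, Txnip had the largest change. Its protein binds and inhibits thioredoxin and restrains glucose uptake. It read 7.12, 9.52 and 9.53 in untreated cells and 5.41, 7.36 and 7.43 after the antibody (change -1.99, SE 0.16, adjusted p = 0.0303). Its levels differed more between experiments than between conditions, so the groups overlapped, while the paired changes were -1.71, -2.16 and -2.10.

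The next 3 genes varied little between untreated arrays. Rnf103, a ubiquitin ligase of the endoplasmic reticulum, read 7.85, 7.89 and 7.84 and after the antibody 6.95, 6.26 and 6.27 (change -1.37, SE 0.15, adjusted p = 0.0487). Slc39a9, a zinc transporter, read 7.52, 7.58 and 7.65 and then 6.496, 6.09 and 6.22 (change -1.31, SE 0.12, adjusted p = 0.0326), but only 1 of its 3 probe sets had this sign, and their mean changed by -0.33. Slc35e1, a member of the nucleotide sugar transporter family, read 7.97, 8.06 and 8.09 and then 7.07, 6.77 and 7.02 (change -1.09, SE 0.12, adjusted p = 0.0487). In each of these genes the fall was smallest in experiment 1 and the groups did not overlap.

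Phka1 encodes a regulatory subunit of phosphorylase kinase, which turns on glycogen breakdown. It read 7.04, 6.81 and 6.87 untreated and 6.13, 5.73 and 5.60 with the antibody (change -1.09, SE 0.11, adjusted p = 0.041), and all 3 of its probe sets were lower. Stk11ip, a protein that binds the kinase Lkb1, read 5.40, 5.68 and 6.08 and then 4.56, 4.67 and 4.93 (change -0.999, SE 0.11, adjusted p = 0.0457). Slc7a6, an amino acid transporter, had the smallest change of the 15, from 9.25, 9.09 and 9.14 to 8.55, 8.17 and 8.30 (change -0.82, SE 0.09, adjusted p = 0.0469). The plot of levels by array shows these 15 genes with the HGF/SF1 arrays beside them. The same arrays chose the 15 genes, so where groups did not overlap this is a description, and the share over all genes is not given.

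**Figure D1:**
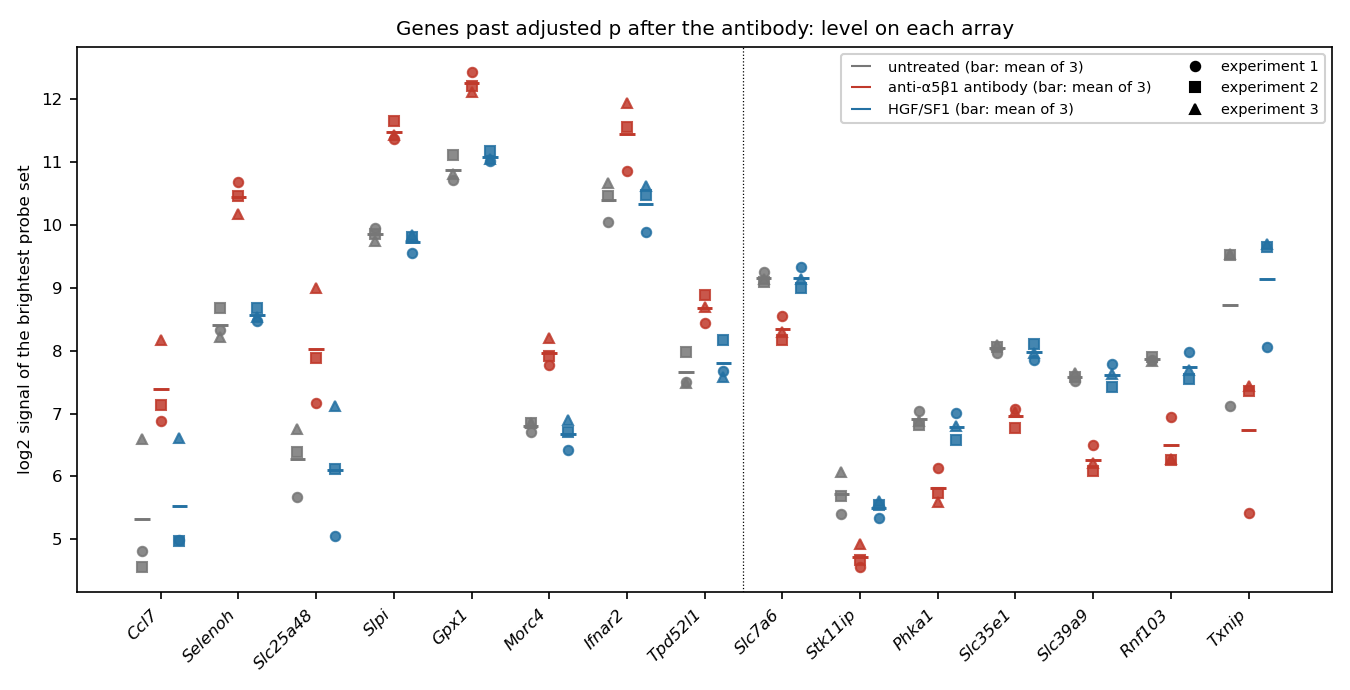
The log2 signal of the brightest probe set (vertical axis) on each of the 9 arrays is plotted for the 15 genes past the adjusted threshold, those that rose left of the dotted line and those that fell right of it. Grey, red and blue points are untreated, antibody and HGF/SF1 arrays, the marker shape gives the experiment and the short bars are means of 3 arrays. In every gene but Txnip the red points lie clear of the grey ones, on the same arrays that chose these genes.

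Without the block 5 of these 15 genes passed the adjusted threshold (Selenoh, Slpi, Gpx1, Slc39a9 and Slc35e1), and with the HGF/SF1 arrays left out of the fit 0 did, where 3749 probe sets had an unadjusted p under 0.05. All 15 lost the adjusted threshold when any single untreated array, or the antibody array of experiment 2 or 3, was left out, with 0 or 1 gene passing, and all 15 kept it without the antibody array of experiment 1.

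A further 9 probe sets passed the adjusted threshold outside these genes. Of these, 3 name no gene or several, with changes of -1.10, -1.26 and 1.29. The other 6 are dimmer probe sets of their genes. Tgfb2, a growth factor that restrains epithelial growth, rose by this measure with paired changes of 1.65, 1.63 and 1.78 (adjusted p = 0.0326 from limma), and so did Enah, a regulator of actin filament ends (change 0.99, adjusted p = 0.0457), Ahnak, a very large scaffold protein (1.32, adjusted p = 0.0301), and the kinase Pim3 (1.11, adjusted p = 0.0326). Nudt5, which hydrolyses ADP-ribose (-1.87, adjusted p = 0.024), and Pmm2, the phosphomannomutase that supplies mannose for glycosylation (-1.24, adjusted p = 0.0326), fell by this measure. The brightest probe sets of these 6 genes did not pass the adjusted threshold, and their changes are not given.

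The sequence upstream of the start of transcription was at hand for 14 of the 15 genes, from the RefSeq annotation of GRCm38.p6. The hexamer CGGAAG, the core of the motif of ETS-family factors, was searched on both strands in the 250 bases before the start, with 5 other motifs. It lay in 5 of the 7 genes that fell (Rnf103, Slc35e1, Slc39a9, Slc7a6 and Stk11ip) and in 0 of the 7 that rose and had an entry. The motif was chosen after these values were seen, so the split is a description and no support for a part of the motif. Counts of the 5 other motifs in these genes are not given. Slc39a9 is counted by its brightest probe set, whose sign its other probe sets did not share. Among all genes with a mean level above the median and an entry, 29.99% (1542 of 5142) held it. It was found in 25.3% of those called higher (142 of 562), 35.0% of those called lower (287 of 820) and 29.6% of those not called. The upstream sequences of 4 genes are printed to show where the match lies in genes that fell and its absence in a gene that rose, each 5′ to 3′ and ending at the base before the start: Slc39a9 (chr12:80643965-80644214, plus strand), Slc7a6 (chr8:106168604-106168853, plus strand), Stk11ip (chr1:75521279-75521528, plus strand) and Slpi (chr2:164356508-164356757, minus strand). Capitals mark CGGAAG or its reverse complement CTTCCG, which begins 40, 77 and 35 bases before the start in Slc39a9, Slc7a6 and Stk11ip. The other motifs searched, such as CACGTG in Slpi, are not marked.
Slc39a9: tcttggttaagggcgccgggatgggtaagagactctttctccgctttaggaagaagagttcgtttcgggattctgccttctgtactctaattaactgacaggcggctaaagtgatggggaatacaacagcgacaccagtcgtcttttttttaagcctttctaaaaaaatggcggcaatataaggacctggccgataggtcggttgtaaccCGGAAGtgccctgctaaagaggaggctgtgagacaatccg
Slc7a6: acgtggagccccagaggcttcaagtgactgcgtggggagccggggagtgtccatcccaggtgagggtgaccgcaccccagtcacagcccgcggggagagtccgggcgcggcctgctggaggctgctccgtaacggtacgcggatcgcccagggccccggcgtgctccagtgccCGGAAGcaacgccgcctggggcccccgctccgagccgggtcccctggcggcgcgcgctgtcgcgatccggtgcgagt
Stk11ip: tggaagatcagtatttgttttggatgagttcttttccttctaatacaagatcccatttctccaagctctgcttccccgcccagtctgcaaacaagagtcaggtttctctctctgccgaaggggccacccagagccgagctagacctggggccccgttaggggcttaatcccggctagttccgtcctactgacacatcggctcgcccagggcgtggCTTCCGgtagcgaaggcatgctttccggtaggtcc
Slpi: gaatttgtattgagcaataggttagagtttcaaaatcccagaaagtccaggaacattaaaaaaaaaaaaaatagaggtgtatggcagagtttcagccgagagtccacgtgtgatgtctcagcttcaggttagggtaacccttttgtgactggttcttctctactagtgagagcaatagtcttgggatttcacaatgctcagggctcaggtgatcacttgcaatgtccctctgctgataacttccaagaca
A match is a run of letters and not a measured binding site. For the other motifs the shares of the brighter genes called higher, of those called lower and of all brighter genes were as follows: CCAAT 34.5%, 37.2% and 37.0%, GGGCGG 68.3%, 62.6% and 63.8%, TATAAA 5.87%, 6.46% and 5.70%, CACGTG 9.79%, 10.9% and 9.14%, and TGACTCA, the site of AP-1, 4.27%, 3.05% and 2.90%.

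To describe genes with a large change in every experiment, the 20 per direction with the largest smallest paired change were taken. They came from called genes with a mean level above the median. The rule does not ask that the 3 changes be even. These changes chose the genes and are given as a description. Among those called higher S100a9, Lcn2, Pim1, S100a8 and Ptgs2 had the largest fitted changes, from 2.37 to 3.61. S100a9 and S100a8, which together form the antimicrobial complex calprotectin, had paired changes of 4.36, 4.90 and 1.59 and of 2.59, 4.21 and 1.16. Lcn2, which binds bacterial iron carriers, had 3.99, 4.10 and 0.98. In these genes the untreated array of experiment 3 was already high: S100a9 read 5.38, 4.80 and 8.88 in untreated cells and 9.74, 9.70 and 10.46 after the antibody, and Lcn2 read 4.21, 6.35 and 10.39 and then 8.20, 10.45 and 11.38.

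Ptgs2, the inducible enzyme of prostaglandin synthesis, had paired changes of 1.64, 4.38 and 1.08, and Sprr2d, a protein of the cornified envelope, 1.97, 2.86 and 0.99. Pim1, a kinase that promotes survival, had 1.88, 4.01 and 2.45, the largest smallest change of these genes. None of these met the adjusted threshold (from 0.0754 for Pim1 and S100a9 to 0.143 for Ptgs2, limma).

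Other genes called higher were more even. Bnc1, a zinc finger factor of basal epithelium, had paired changes of 1.01, 1.09 and 1.04, Tubb2b, a β-tubulin, 1.15, 1.42 and 1.42, and Adam8, a membrane metalloprotease, 1.47, 1.71 and 1.94. Ddit4, an inhibitor of mTORC1 induced by stress, had 1.69, 2.26 and 2.32, and St3gal1, which caps O-glycans with sialic acid, 1.08, 2.56 and 2.53. Selenow, a selenoprotein gene like Selenoh and Gpx1, had 2.31, 1.43 and 1.20 and, like those, its largest change in experiment 1. Ccn1, a matrix protein that integrins bind (1.503, 1.01, 2.30), Lcorl (1.46, 2.86, 2.10) and the transcription factor Jun (1.99, 1.25, 1.04) completed the group, with Jun called without support from its other probe set, whose sign differed, and not past an unadjusted p under 0.05 without the block.

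Among the genes called lower Kcne3, Cldn2, Mlph and Dido1 had the largest fitted changes, from -2.10 to -2.49. Kcne3, a subunit of potassium channels, had paired changes of -1.24, -3.87 and -2.36, and Cldn2, which forms the cation pores of tight junctions, -0.80, -3.94 and -2.41. Cldn2 read 11.79, 10.86 and 9.94 in untreated cells and 10.99, 6.92 and 7.53 after the antibody. Esrp2, which directs epithelial splicing, had -0.85, -1.88 and -1.32, Mlph, a linker between melanosomes and myosin, -0.96, -3.11 and -2.36, and Lrrc26, a subunit of BK potassium channels, -0.85, -2.66 and -1.07. The other probe set of Mlph had the opposite sign.

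Selenos, a selenoprotein of the endoplasmic reticulum that takes part in the disposal of misfolded proteins, was called lower, unlike Selenoh, Gpx1 and Selenow, with paired changes of -0.95, -1.53 and -1.70, all 3 probe sets lower. Dido1 (-0.96, -2.79, -2.54), Bclaf1 (-0.94, -1.13, -2.15) and Mettl17 (-0.98, -1.62, -1.35), the last a factor of the mitochondrial ribosome, are genes of chromatin, transcription and translation. Smpd3, the neutral sphingomyelinase (-0.86, -2.54, -1.78), Gpd1, a glycerol phosphate dehydrogenase (-0.83, -2.14, -1.77), and Slc26a2, a sulfate transporter (-1.02, -1.45, -1.22), act in metabolism. Asb13, Fam13b, Zfyve26 and Zxdc were also in the group, and Zxdc was lower by only 1 of its 3 probe sets, with a mean over them of 0.13.

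**Figure D2:**
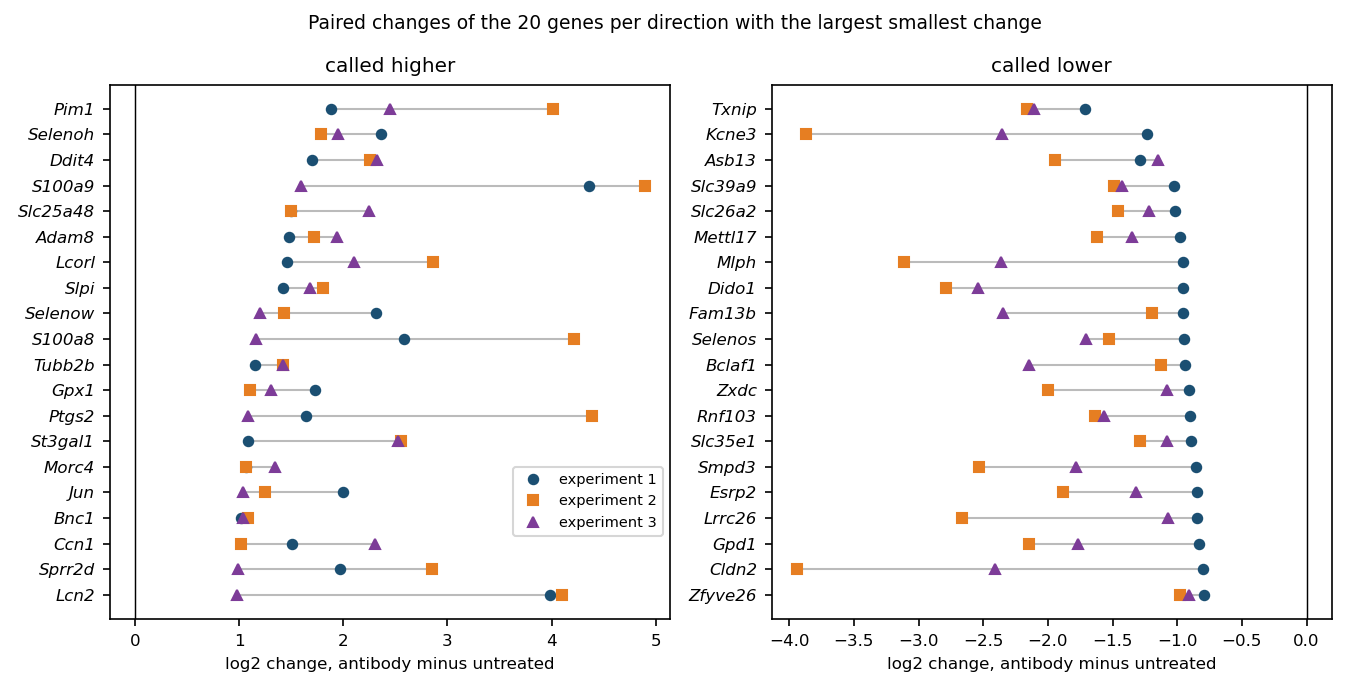
The paired log2 change, antibody minus untreated, of each experiment (horizontal axis) is plotted for the 20 genes called higher (left) and the 20 called lower (right) with the largest smallest change, the grey line spanning the 3 values. Circles, squares and triangles are experiments 1, 2 and 3. In most genes called lower the circle, experiment 1, lies nearest to 0, while S100a9, S100a8 and Lcn2 were smallest in experiment 3.

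The 15 genes past the adjusted threshold and these 40 made 46 genes together, of which 32 had their smallest change in experiment 1 and 13 belonged to any of the gene lists described next. Of the 23 with several probe sets, all probe sets had 1 sign in 17.

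To describe functions that a short list of candidates does not hold, 69 lists with 4570 genes were drawn up by symbol family or by members, and each is given by its counts and its median, with no test of the list. Of the called genes, 777 were in a list and 1345 in none. In 34 lists more genes were called lower than higher, in 23 more were called higher, and in 12 the counts were equal. List medians ran from -0.21 to 0.29 on the log2 scale. When arrays were centred on their medians, the larger count changed direction in 7 lists (ion channels, ESCRT and retromer, RNA decay, pyruvate and the TCA cycle, purine and pyrimidine synthesis, one-carbon metabolism, and Fam and Ccdc proteins), and no direction is given for these. Without experiment 1, 2 or 3 the number of genes called fell by more than 1.5 times in 0, 59 and 41 of the 68 lists with any call, and in 3, 16 and 9 lists the larger count was no longer the larger. The genes named from a list are the called members with the smallest p, and apart from 4 solute carriers and Rnf103 none met the adjusted threshold.

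RNA metabolism had the largest share of genes called lower. Of 310 genes in its 6 lists, 61 were called lower (19.7%, against 9.80% of all genes) and 19 higher (6.13%, against 7.33%), with a median of -0.10. The list of RNA modification enzymes, drawn up by symbol, stood at 20 lower and 2 higher of 68. Its medians were -0.07, -0.22 and -0.35 in experiments 1, 2 and 3. Beside Mettl17 the members called lower with the smallest p were Nsun4, a methyltransferase of mitochondrial ribosomal RNA (-0.57, -0.73 and -0.93), and Cmtr2, which methylates the mRNA cap (-0.54, -0.63 and -0.85). Trdmt1, a tRNA methyltransferase (0.69, SE 0.22), and Mettl22, a member by its symbol alone (0.80, SE 0.16), were called higher. With centred arrays the counts were 16 lower and 4 higher, and without experiment 1, 2 or 3 they were 29 and 4, 9 and 1, and 10 and 3.

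Of 78 genes of ribosome biogenesis and the nucleolus, 19 were called lower and 7 higher. Rrp12, an export factor of ribosomal subunits (-0.61, -0.57 and -0.89), Tsr1, of the small subunit (-0.46, -1.04 and -0.37), and Wdr12, of the large subunit (-0.28, -0.55 and -0.78), led those called lower, and Sdad1 (0.53, SE 0.15) and Gtpbp4 (0.42, SE 0.14) were called higher. Genes of 3′ end formation and mRNA export were called lower in 10 of 56 and higher in 3, with Clp1 (-0.93, SE 0.18), Cstf2t (-0.87, SE 0.20) and Nxf1, the main mRNA export receptor (-0.72, SE 0.17), among the former. RNA helicases counted 6 lower and 2 higher of 46, or 6 and 7 without experiment 1, and small RNA genes, with Tnrc6c and Tnrc6a of the silencing complex, 3 lower and 1 higher of 13. These lists hold mostly bright genes, and among genes above the median level 15.9% were called lower and 11% higher, 26.9% in all.

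In the 4 lists of membrane transport 58 of 476 genes were called lower (12.2%, against 9.80% of all genes) and 19 higher (3.99%, against 7.33%), and solute carriers held most of those called lower, with 43 lower and 9 higher of 262. Beside Slc39a9, Slc35e1 and Slc7a6, which fell, the folate transporter Slc46a1 (-0.60, SE 0.13) and the mitochondrial glycine carrier Slc25a38 (-0.47, SE 0.09) were called lower. The glucose transporter Slc2a1 (0.59, SE 0.16), the bicarbonate transporter Slc4a8 (0.70, SE 0.14) and the mitochondrial iron importer Slc25a37 (0.88, SE 0.25) were called higher. Centred arrays gave 37 lower and 16 higher, and without experiment 1, 2 or 3 the solute carriers called were 55 and 15, 17 and 6, and 24 and 6.

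The ABC transporters counted 4 lower and 1 higher of 36, or 2 and 2 with centred arrays, with the surfactant lipid transporter Abca3 (-0.78, SE 0.15) and Abcc3, which exports conjugates (-0.61, SE 0.15), among those called lower. Of the ion channel genes, Kcne2, like Kcne3 a subunit of potassium channels, had paired changes of -3.47, -3.77 and -1.13. Pumps, aquaporins and carbonic anhydrases counted 5 in each direction of 46. Carbonic anhydrase Car2 read higher by 0.73, 1.65 and 1.26 and Car5b by 0.56, 1.71 and 1.56.

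**Figure D3:**
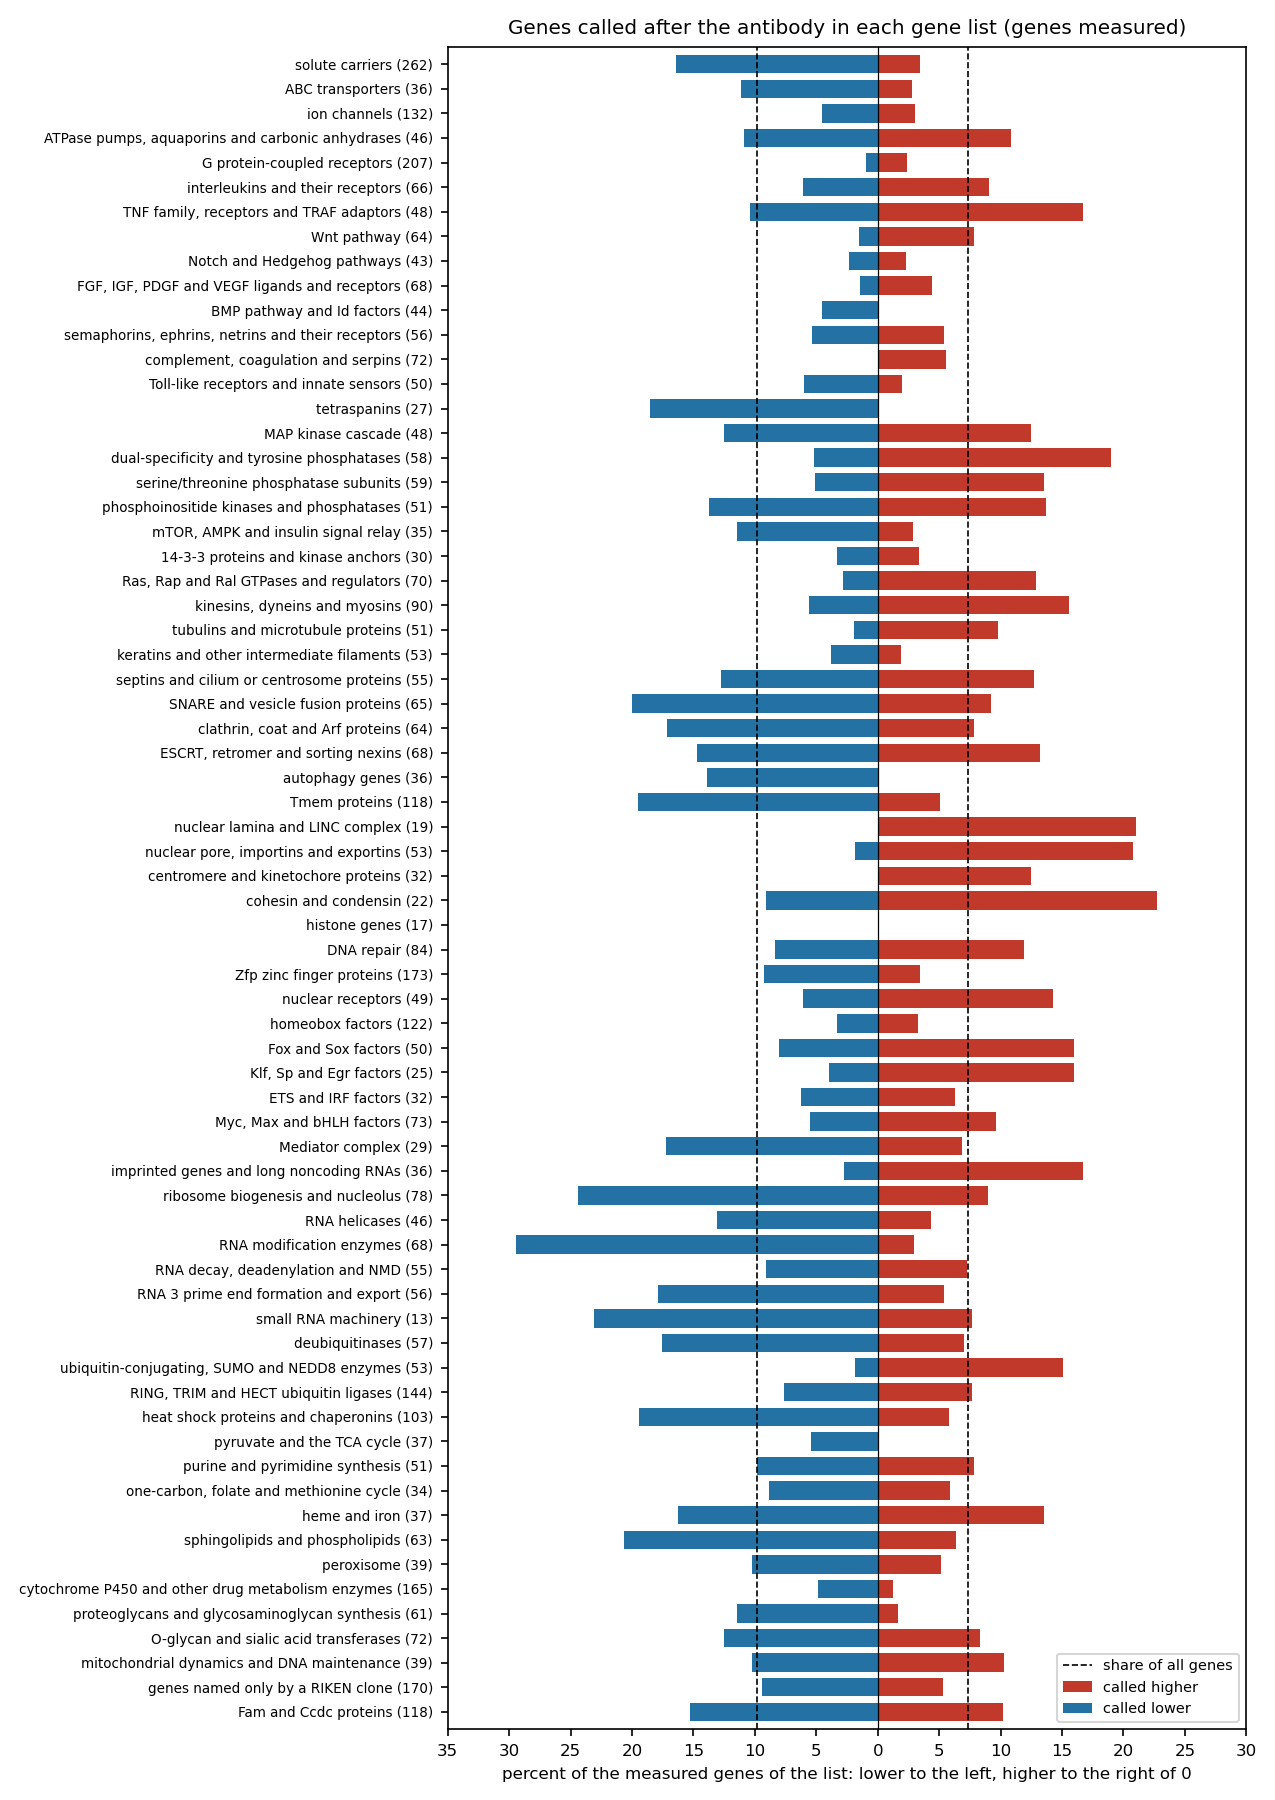
Bars give the percent of the measured genes of each list shown that were called higher (red, right) or lower (blue, left) after the antibody, with the number of genes measured in brackets, and the dashed lines mark the shares of all genes, 7.33% higher and 9.80% lower. RNA modification enzymes have the longest blue bar (29.4%), and cohesin and condensin (22.7%), nuclear lamina (21.1%) and nuclear pore (20.8%) the longest red bars, in lists of 22, 19 and 53 genes.

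The 15 lists of the nucleus, chromosomes and DNA, transcription factor families among them, held 80 genes called higher of 814 (9.83%, against 7.33% of all genes). In these lists 50 genes were called lower (6.14%, against 9.80%). In several lists of the nucleus and chromosomes more genes were called higher than lower. Of 53 genes of the nuclear pore, importins and exportins, 11 were called higher and 1 lower, with a median of 0.17. Xpo1, the main export receptor (0.29, 0.98 and 0.76), Kpna3, an importin α (0.31, 0.60 and 0.48), and Nup62, of the central channel (0.45, 0.43 and 0.48), were among them, and Ipo11 (-0.54, SE 0.17) was the gene called lower. Median changes of this list were 0.07, 0.38 and 0.05 in the experiments, and without experiment 2 the counts were 3 and 1. The nuclear lamina and the LINC complex, which ties the nuclear envelope to the cytoskeleton, gave 4 higher and 0 lower of 19, with Sun2 (0.35, SE 0.10), Emd (0.57, SE 0.22) and Lemd2 (0.34, SE 0.11).

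Cohesin and condensin genes were called higher in 5 of 22 and lower in 2. Nipbl, which loads cohesin onto DNA, had paired changes of 0.63, 1.03 and 0.69, while Mau2, its partner in that complex, had -0.71, -0.53 and -0.16. The condensin genes Smc4 (0.87, SE 0.21) and Ncapg (0.81, SE 0.18) were called higher. At the centromere and kinetochore 4 of 32 were called higher (12.5%, against 7.33% of all genes) and 0 lower. Among its 27 members above the median level 4 were called higher (14.8%), against 11% of all genes above that level. Bub1, a kinase of the spindle checkpoint (0.44, 1.47 and 0.96), and Incenp (0.30, 1.405 and 0.60) were called higher. These lists had their largest medians in experiment 2, 0.52 for cohesin and condensin and 0.49 for the centromere against 0.01 and -0.06 in experiment 1, and without experiment 2 the calls fell to 2 and 1 higher.

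DNA repair genes counted 10 higher and 7 lower of 84. The recombination factor Rad51b (1.01, 1.25 and 1.16), the ubiquitin ligase Rad18 (0.58, 0.74 and 0.38) and Mre11a, a nuclease at broken ends (0.34, 1.00 and 0.80), led those called higher, with a second probe set of Rad51b of the opposite sign. Of 17 histone genes none was called in either direction, at an unadjusted p under 0.05 in limma with 3 changes of 1 sign.

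Transcription factor families moved in both directions. Zfp zinc finger genes were called lower in 16 of 173 and higher in 6, led by Zfp672 (-1.59, SE 0.30). Nuclear receptors counted 7 higher and 3 lower of 49, or 1 and 2 without experiment 3, with the clock repressor Nr1d1 (0.09, 1.98 and 1.85) and the early response gene Nr4a1 (0.39, 0.80 and 2.45) higher and the coactivator Ncoa5 (-1.17, SE 0.21) lower. Among Fox and Sox genes, 8 higher and 4 lower of 50 and 2 and 2 without experiment 2, the liver pioneer factor Foxa1 was called lower (-0.32, -1.14 and -1.02) and Sox9, a factor of bile duct and progenitor cells, higher (0.17, 1.16 and 0.68), though 1 of its 2 probe sets had the opposite sign.

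Klf7 (1.08, 1.22 and 0.50) and Klf9 (0.89, 0.76 and 0.45) were called higher among 4 higher and 1 lower of 25 Klf, Sp and Egr genes. Elf3, an ETS factor of epithelia, was called higher (0.77, 1.37 and 1.47, adjusted p = 0.0599 from limma) and the interferon factor Irf3 lower (-0.25, -0.95 and -1.06). The basic helix-loop-helix genes gave the Max partner Mxd4 (-0.55, -2.27 and -1.79) as lower and Bhlhe40 (0.34, 1.43 and 2.05) as higher. Mediator subunits counted 5 lower and 2 higher of 29, but 3 and 3 with centred arrays, with Med20 (-0.64, SE 0.12) and Med17 (-0.60, SE 0.12). Among imprinted and long noncoding genes, 6 higher and 1 lower of 36, Cdkn1c, an inhibitor of the cell cycle (0.72, SE 0.11), and the snoRNA host Snhg6 (0.79, SE 0.13) were called higher.

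Genes that relay signals had a larger share called higher than all genes, 56 of 424 (13.2%, against 7.33%), and 31 lower (7.31%). Both lists of phosphatases leaned that way. Of the dual-specificity and tyrosine phosphatases 11 of 58 were called higher and 3 lower, with Dusp16, which acts on JNK and p38 (0.65, 1.26 and 1.05), and Cdc25b, which activates cyclin-dependent kinases (0.30, 1.01 and 1.41), called higher and Dusp6, which acts on ERK (-0.66, -2.44 and -0.78), lower. Serine/threonine phosphatase subunits gave 8 higher and 3 lower of 59, with Ppp6r2 (0.68, SE 0.11). Without experiment 2 these counts were 5 higher and 3 lower, and 4 and 1.

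Ras, Rap and Ral genes counted 9 higher and 2 lower of 70, with Rassf5, a Ras effector (0.84, 0.60 and 0.83), higher and Rassf3 (-0.84, SE 0.23) lower.

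The MAP kinase cascade gave 6 genes in each direction of 48. Araf (-0.71, SE 0.14) and Map2k3 (-0.63, SE 0.14) were called lower, and the JNK gene Mapk9 (0.46, SE 0.12) and the Ras exchange factor Sos1 (0.89, SE 0.27) higher. Phosphoinositide enzymes also gave 7 in each direction of 51, with the catalytic subunit Pik3ca (-0.43, -1.25 and -1.81) lower and Inpp5a (0.80, 0.72 and 0.97) higher. Of mTOR, AMPK and insulin genes 4 of 35 were called lower and 1 higher, or 0 and 1 without experiment 2, and the translation repressors Eif4ebp1 (0.51, SE 0.11) and Eif4ebp2 (-0.62, SE 0.19) differed in sign.

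In the 9 lists of the cytoskeleton and trafficking 77 of 600 genes were called lower (12.8%, against 9.80% of all genes). Of these 600, 53 were called higher (8.83%, against 7.33%). These shares were not matched for level, and among genes above the median level 15.9% were called lower and 11% higher. They therefore show no excess over genes of like level. Kinesins, dyneins and myosins were called higher in 14 of 90 and lower in 5, with Kif3c (0.52, 0.38 and 0.64). Without experiment 2 these counts were 3 and 1, and without experiment 3 they were 4 and 4. Tubulins and microtubule proteins were called higher in 5 and lower in 1 of 51, with Tubb2b and Ckap5 (0.27, 1.44 and 0.85). SNARE and vesicle fusion genes were called lower in 13 of 65 and higher in 6, with Bet1 (-0.70, -0.88 and -1.20) and Gosr2 (-0.47, -0.80 and -0.64), both of the route from endoplasmic reticulum to Golgi. Clathrin, coat and Arf genes counted 11 lower and 5 higher of 64, 7 and 7 with centred arrays and 3 and 4 without experiment 2, with the adaptor subunit Ap4s1 (-0.99, -1.19 and -1.44). Autophagy genes counted 5 lower and 0 higher of 36, or 5 and 5 without experiment 1, led by Rb1cc1 (-1.09, SE 0.23), whose second probe set was higher. Tmem proteins, grouped by name alone, counted 23 lower and 6 higher of 118. Of the intermediate filament genes, the cytolinker Plec (-0.62, SE 0.11) and Krt20 (-0.55, SE 0.16) were among 2 lower and 1 higher of 53.

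In the 4 lists of protein folding and turnover 42 of 357 genes were called lower (11.8%, against 9.80% of all genes). Of these 357, 29 were called higher (8.12%, against 7.33%). Neither share was matched for level. Of all genes above the median level 15.9% were called lower and 11% higher, so no excess at like level is shown. Among the heat shock and chaperone genes 20 of 103 were called lower and 6 higher. The members called lower with the smallest p, Dnajc10 (-0.65, -0.83 and -1.11), Dnajc3 (-0.56, -0.90 and -1.05) and Dnajb11 (-0.40, -0.82 and -0.93), encode cochaperones of the endoplasmic reticulum, and Hspa9, the chaperone of mitochondria (0.50, SE 0.15), was called higher. Deubiquitinases counted 10 lower and 4 higher of 57, or 7 and 7 with centred arrays, and Otud7b had even changes of -1.15, -1.26 and -1.31. The list of ubiquitin, SUMO and NEDD8 conjugation, drawn up by symbol, counted 8 higher and 1 lower of 53, but 2 and 2 without experiment 2. Ube2e2 (0.82, 1.17 and 0.98) was called higher, and Ufm1, a modifier and not an enzyme (-0.81, SE 0.13), lower. The RING, TRIM and HECT ligases gave 11 in each direction of 144.

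The 10 lists of metabolism held 60 genes called lower of 594 (10.1%, against 9.80% of all genes) and 30 higher (5.05%, against 7.33%). Sphingolipid and phospholipid genes counted 13 lower and 4 higher of 63, with Chkb and Etnk1, kinases of the first step toward phosphatidylcholine and phosphatidylethanolamine, at -0.56 (SE 0.11) and -0.54 (SE 0.12). Pla2g4a, the phospholipase that frees arachidonic acid, was called higher (0.92, 1.65 and 0.90). Proteoglycan and glycosaminoglycan genes counted 7 lower and 1 higher of 61, with the chondroitin polymerase gene Chpf2 (-0.94, SE 0.17), the linker enzyme gene B3gat3 (-0.52, SE 0.09) and Hs6st1 (-0.59, SE 0.12).

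In sialic acid synthesis Cmas, which activates the sugar (-0.60, -0.67 and -1.08), and Nanp, the phosphatase before it (-0.22, -0.77 and -0.65), were called lower, whereas the transferase St3gal1 was called higher. Among heme and iron genes Uros, of heme synthesis (-0.63, -2.04 and -1.50), and the iron regulatory protein Ireb2 (-0.67, SE 0.14) were called lower and the heme exporter Flvcr1 (0.58, 0.88 and 1.70) higher. The mitochondrial DNA polymerase Polg (-0.68, SE 0.11) and the transcription factor Tfb2m (-0.53, SE 0.13) were called lower and the fusion protein Opa1 (0.50, SE 0.13) higher. Drug metabolism enzymes gave 8 lower and 2 higher of 165, or 3 and 3 without experiment 2, with Cyp4b1 (-1.11, SE 0.28).

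Receptors and ligands had fewer calls than all genes, 36 higher (4.83%) and 27 lower (3.62%) of 745, and most of them were dim: of 207 G protein-coupled receptors 11 lay above the median level. Il6, an inflammatory cytokine, had paired changes of 3.54, 4.43 and 0.32, and Il1f9, of the interleukin 1 family, 0.72, 1.90 and 2.96. The adaptor of Toll-like and interleukin 1 receptors Myd88 (-0.50, -1.72 and -1.72) and its partner Tirap (-0.15, -0.86 and -1.02) were called lower. In the Wnt pathway 5 of 64 genes were called higher (7.81%, against 7.33% of all genes) and 1 lower. The kinase gene Csnk1e (0.76, 0.78 and 1.00) was called higher and the receptor Fzd6 (-0.75, SE 0.21) lower.

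Notch3 (0.74, 0.60 and 0.99) was called higher and Hes1, a target of Notch, lower (-0.61, -1.46 and -0.44). Id2, an inhibitor of helix-loop-helix factors, was called lower (-0.90, -2.02 and -0.29). Of the complement, coagulation and serpin genes 4 of 72 were called higher (5.56%, against 7.33% of all genes) and 0 lower, or 3 and 3 without experiment 3, with Serpinb6b (0.62, 0.77 and 0.89), Serpinb8 (0.72, 1.28 and 1.396) and F3, tissue factor (0.60, 1.16 and 1.10). Tetraspanins were called lower in 5 of 27 and higher in 0, with Tspan4 (-0.68, SE 0.15) and Cd53 (-2.21, -0.48 and -1.13).

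Markers of other cell types were set beside these changes. Of the 12 macrophage and leukocyte markers measured, 3 were called higher: Cd68, a lysosomal glycoprotein (5.12, 5.20 and 6.17 untreated, 6.66, 8.15 and 9.47 with the antibody), S100a8 and S100a9. The brightest of the 12, Cd14, was not called and read 11.95, 12.18 and 11.68 untreated and 12.34, 11.33 and 10.52 with the antibody (change -0.54, adjusted p = 0.445 from limma). The markers Ptprc (3.25), Itgam (3.55), Tyrobp (3.69) and Adgre1 (4.26) were near the bottom of the scale with changes between -0.01 and 0.09. Fcer1g (4.37), Lyz2 (4.41), Cd3e (5.09) and Csf1r (5.35), also below the median level, had changes of -0.12, 0.19, 0.08 and 0.07 and were not called. The summed linear signal of the 12 ran from 4492 to 4926 in untreated and from 4925 to 8036 in antibody cells, and without Cd14 it was 533, 292 and 1309.8 untreated and 2848, 2351 and 3662 with the antibody. With the antibody the sum without Cd14 was mostly S100a8, S100a9 and Cd68, so it repeats the changes of the 3 called genes and not those of the other markers. The part of macrophages and leukocytes in the results on S100a8, S100a9 and Cd68 was not tested. The hepatocyte factor Hnf4a was called lower (10.00, 9.93 and 8.85 untreated, 9.21, 8.78 and 8.23 with the antibody, adjusted p = 0.068 from limma), and the other hepatocyte markers were not called. The epithelial and progenitor sum ran from 49272 to 55107 untreated and from 45004 to 48079 with the antibody. It was mostly Krt18, Krt8, Krt19 and Cd24a, none of which was called. Of its 10 markers 0 were called lower and 1, Sox9, higher. Endothelial sums (83.9 to 119 and 83.6 to 137) and those of fibroblast and stellate cells (171 to 208 and 185 to 192) overlapped, with no gene called at an unadjusted p under 0.05 in limma. In bulk RNA, fewer cells of a type and less RNA per cell cannot be told apart.

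Many genes were measured by several probe sets, which target different parts of the transcripts on the same arrays. In experiment 2 the 3′ minus 5′ signal of control probe sets was 0.873 untreated and 0.372 after the antibody for actin. For the transferrin receptor it was 2.78 and 1.97, for pyruvate carboxylase 0.488 and 0.204, and for Gapdh -0.062 and -0.067. In experiments 1 and 3 the transferrin receptor read 1.88 and 1.79 untreated and 2.16 and 1.93 with the antibody. The part of such differences in the results on probe sets and on gene length was not tested. Of 691 genes with at least 2 probe sets past an unadjusted p under 0.05, 67 (9.70%) held probe sets of opposite sign, and in 19 both sides were of 1 sign in all experiments and changed by at least 0.5. Of the 1043 called genes with several probe sets, 749 (71.8%) had all of 1 sign. Klf3, a zinc finger repressor, had paired changes of 0.23, 1.91 and 2.17 by its brightest probe set and of -0.53, -1.63 and -2.28 by another. In Srsf3, a splicing factor, 5 probe sets were lower by 0.65 to 1.30 and 1 was higher by 0.66, and in Hnrnpdl, which binds RNA, 4 were higher by 0.41 to 0.96 and 1 was lower by 0.95.

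Runx1, a transcription factor of blood and epithelium, was higher by its brightest probe set (0.63, SE 0.20) and lower by 2 dim ones (-1.45, SE 0.19, and -0.73, SE 0.30). The phosphatase Ppm1b (-0.63, SE 0.21, and 1.22, SE 0.19) and the 3′ end factor Wdr33 (-0.60, SE 0.18, and 1.29, SE 0.28) also had a probe set on each side, as did Mtch2, of the mitochondrial outer membrane (-1.09, SE 0.22, and 0.96, SE 0.24). In each of these genes the paired changes were smallest in experiment 1.

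**Figure D4:**
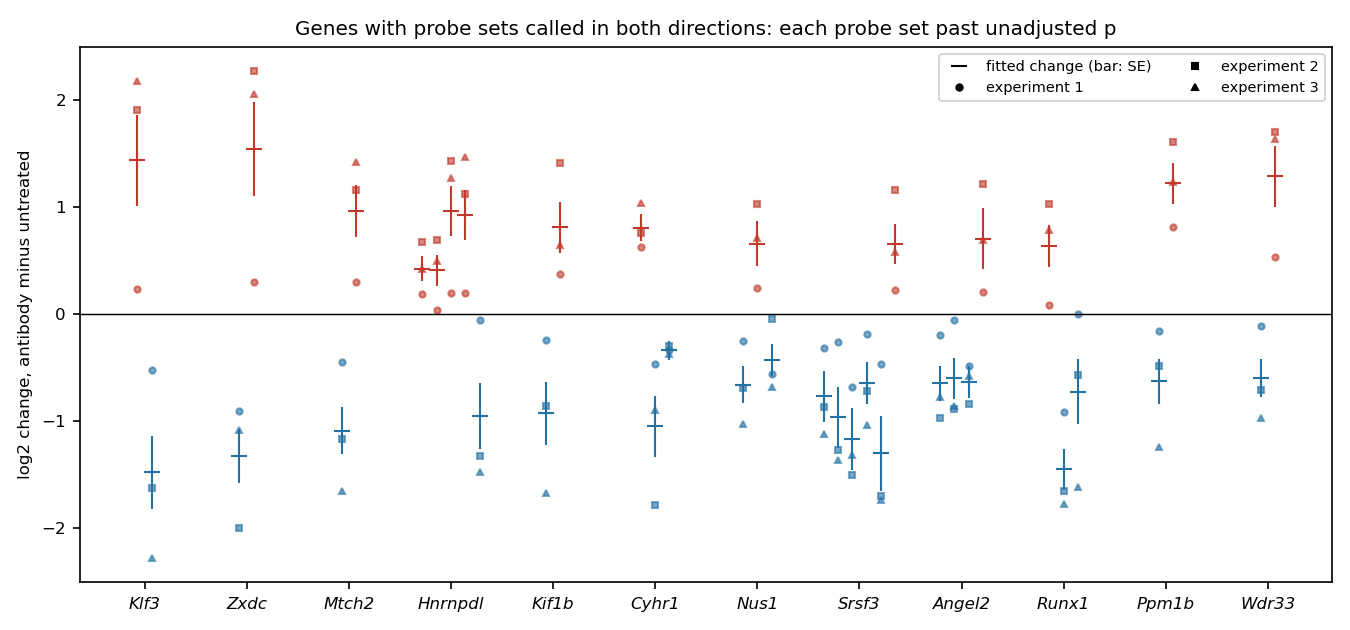
For 12 genes with probe sets past an unadjusted p in both directions, each column of points is 1 probe set, with its paired log2 changes (vertical axis; circle, square and triangle for experiments 1, 2 and 3), its fitted change (horizontal dash) and the SE (vertical bar). Red columns lie above 0 and blue columns below it in the same gene.

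Called genes differed in the length they span in the genome, a property that played no part in the calls. Among genes with a mean level above the median, those called higher had a median length of 30.6 kb, those called lower 17.2 kb and those not called 21.5 kb. When these genes were cut by length into 4 groups of equal size, in the shortest group (0.508 to 9.81 kb) 7.30% were called higher and 19.4% lower, and in the longest (46.8 to 1185 kb) 15.8% and 11.8%. The median change, from the shortest to the longest group, went from -0.11 to -0.05, -0.01 and 0.05, and with centred arrays from -0.05 to 0.01, 0.05 and 0.11. Genes of 1 group share the same arrays and are not replicates, so no test is given. The share of calls also followed the level: of 4 groups of all genes by level, in the dimmest 0.710% were called higher and 0.807% lower, and in the brightest 10.4% and 14.9%.

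**Figure D5:**
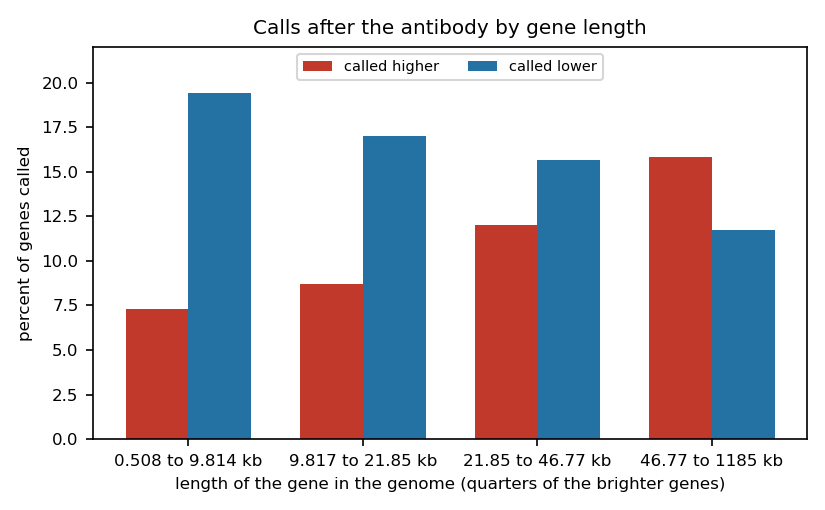
Bars give the percent of genes called higher (red) and lower (blue) after the antibody in each of 4 groups of gene length (horizontal axis, kb), among genes with a mean level above the median. The red bars grow from 7.30% to 15.8% with length and the blue bars shrink from 19.4% to 11.8%.

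The response to the antibody was set beside that to HGF/SF1, which shares the untreated arrays. After HGF/SF1, 198 genes were called (1.60%; 0.968% higher and 0.629% lower) and 0 passed the adjusted threshold in limma, against 2122 and 15 after the antibody. The 15 genes that rose or fell after the antibody had HGF/SF1 changes between -0.22 and 0.41, the latter for Txnip. In the direct contrast of antibody with HGF/SF1 arrays, 140 genes passed the adjusted threshold (1.13%; 0.492% higher with the antibody and 0.637% lower), and the 15 were among them, a contrast that uses the same antibody arrays as their choice. Selenoh was higher by 1.88 (adjusted p = 0.0239) and Slpi by 1.75 (adjusted p = 0.0221) with the antibody than with HGF/SF1, and Txnip was lower by 2.40 on the log2 scale (adjusted p = 0.0221, limma).

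Of the 31 other genes with the largest smallest paired change 8 passed the adjusted threshold against HGF/SF1, and they too were chosen on the same antibody arrays. Esrp2 differed by -1.45 and Selenos by -1.54 (both adjusted p = 0.0417), Slc26a2 by -1.28 (adjusted p = 0.0417) and Bnc1 by 1.35 (adjusted p = 0.0417). S100a8 and Ptgs2, with HGF/SF1 changes of 0.94 and 0.58 beside 2.65 and 2.37 after the antibody, did not pass (adjusted p = 0.261 and 0.211). Sprr2d, at 0.73 and 1.94, did not either (adjusted p = 0.211 from limma). Without experiment 2 or 3 0 of these 46 genes (the 15 and the 31) passed against HGF/SF1 in limma, and without experiment 1, 41 did. All 46 were still called against untreated cells. They were chosen by adjusted p or by a large change in every experiment, so their staying called is in large part set by that choice.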

How the data were processed

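RNA of MLP29 cells from 3 independent experiments was measured on 9 Affymetrix Mouse430A_2 arrays, 3 per condition. Per the study's methods the 9 arrays were handled jointly in affylmGUI, where the background was corrected by rma; the authors deposited 1 log2 value for each probe set. The normalization between arrays and the summary per probe set are not given in the sources used here, and values were used as deposited. The number of arrays limits the precision.

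Of 22690 probe sets, 64 controls were left out. Of the 22626 analysed, 20380 name 1 gene, 691 several and 1555 none, and 20351 matched a symbol of RefSeq (GRCm38.p6). All 9 arrays entered a linear model of condition plus experiment in limma 3.58.1 (R 4.3.3), whose eBayes step added 2.87 prior to 4 residual degrees of freedom, with two-sided tests and Benjamini-Hochberg adjustment. The study states no block, so the fit without it was an alternative. Experiments come from the days in the labels. Deviations of antibody and untreated arrays from their group means correlated within an experiment with r from 0.171 to 0.466, so the numbers pair the samples.

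Members, lists and the rule for named genes were chosen with earlier results of these data known. Named genes are those past the adjusted threshold, the 20 per direction with the largest smallest paired change (mean above the median), up to 3 called genes per list and direction with the smallest p, the integrin subunits and cell type markers. Genes of the section on probe sets, the upstream motifs and probe sets past the adjusted threshold outside the brightest were chosen after their values were seen. Alternatives were other blocks, 6 arrays, centring, quantile normalization, a filter on dim probe sets, a mean-variance trend, the mean of a gene's probe sets and leaving out each experiment or array. The fit was tested on simulated data. One of the gene lists is not reported here.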

Additional observations from a re-analysis of the deposited data

How the results depend on the processing

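As reported, 4114 probe sets passed an unadjusted p (1822 higher, 2292 lower), 24 passed the adjusted p, 2122 genes were called, 44.3% of the former probe sets were higher, 67 genes held probe sets of both signs and 23 of 46 genes (the 15 past the adjusted p and 31 others with the largest smallest paired change) passed against HGF/SF1. Without the replicate block the values were 2674 (1025 and 1649), 5, 1448, 38.3%, 32 and 3, and with a random block 41 passed the adjusted p and 41.5% were higher. With 6 arrays 0 passed the adjusted p, with 3749 past the unadjusted p (43.7% higher), and 46 genes held both signs. Centred arrays gave 37 past the adjusted p, 55.1% higher (2302 and 1875) and a median over the lists of 0.067 in place of 0.011; quantile normalization gave 48.4% higher. Probe sets above the median gave 2864 past the unadjusted p, 40 past the adjusted p, 1579 genes, 41.4%, 24 genes of both signs, 35 of the 46 against HGF/SF1 and a list median of -0.026. A mean-variance trend gave 68 past the adjusted p (44.0% higher past the unadjusted p), and the mean of all probe sets of a gene 10. The cause was not tested.

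Leaving out 1 experiment or array gave from 1750 to 5794 probe sets past the unadjusted p, from 0 to 2627 past the adjusted p, from 929 to 3232 called genes, from 41.8% to 44.5% higher, from 8 to 136 genes of both signs, from 45 to 46 of the 46 genes called, from 0 to 41 of them past the adjusted p against HGF/SF1 and list medians from -0.0094 to 0.018. The rule that chose the 46 genes in large part sets that they stay called. The highest counts past the unadjusted and the adjusted p and of called genes came without the antibody array or all arrays of experiment 1. Of the 2122 called genes, 1399 were also called without the block, 1866 with centred arrays, 1993 with quantile normalization, and 1796, 781 and 972 without experiment 1, 2 and 3.

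By the mean of all probe sets the direction reversed in Dimt1 (-0.000702), Gpr137b (0.29), Ppm1b (0.28) and Zxdc (0.13). No other named gene reversed under any setting run. Of the 416 named genes, 91 lost the unadjusted threshold without the block, 152 without experiment 2 and 107 without experiment 3. Of the 46 genes, 43 stayed called without the block. In the dimmest of 4 groups of genes by level 0.710% were called higher and 0.807% lower.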

Other observations

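Genes known only by a family name or a clone number also held calls. Of 170 genes named only by a RIKEN clone, 16 were called lower and 9 higher, with 2410004B18Rik (-0.61, -1.11 and -0.77) and 0610040J01Rik (-0.37, -0.77 and -0.77) lower and D030056L22Rik (0.41, 0.50 and 0.48) higher in the 3 experiments. Of 118 Fam and Ccdc genes 18 were called lower and 12 higher, 14 and 17 with centred arrays and 7 and 7 without experiment 2, with Fam83h, which binds keratin (-0.49, -1.34 and -0.78), and Ccdc137 (-0.54, -0.53 and -0.66) lower and Ccdc59 (0.32, 0.54 and 0.74) higher.

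In one-carbon and polyamine metabolism Mat2b, a subunit of methionine adenosyltransferase, was called lower with even changes (-0.58, -0.56 and -0.52), and Odc1, the first enzyme of polyamine synthesis (0.40, 0.49 and 0.40), and Ahcyl1 (0.50, 0.60 and 1.03) were called higher. In purine synthesis Ppat, which catalyses the first committed step, was called lower (-0.56, -0.60 and -0.32), and Adssl1, of the purine nucleotide cycle of muscle, higher (1.07, 0.50 and 1.24). Peroxisome genes counted 4 lower and 2 higher of 39, or 0 and 3 without experiment 2, with Pex26 (-0.63, SE 0.20) lower. Septin, cilium and centrosome genes counted 7 in each direction of 55, with Ift20, of intraflagellar transport (-0.55, -1.13 and -1.25), lower and Cep57l1 (0.75, 1.02 and 0.76) higher.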
